A study of Mus musculus with 5 samples.

Results

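Kinesins are motor proteins that walk along microtubules or take them apart, and centromere proteins (CENPs) build the platform on each chromosome to which the spindle attaches. One set of kinesins works in dividing cells, where it separates spindle poles, moves chromosomes and cuts the daughter cells apart. Another carries vesicles, organelles and RNA in cells whether or not they divide. CENP-A, a histone H3 variant, marks the centromere. The constitutive centromere-associated network (CCAN) sits on it as the inner kinetochore, and outer proteins such as CENP-E and CENP-F join during mitosis. Transcripts of the mitotic kinesins and of many kinetochore genes are known to be made late in the cell cycle, so they are widely used as marks of cycling cells.

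The genes described here are all those whose symbol in the platform's annotation begins with Kif or Kifc and a digit, or with Cenp and a further letter. They numbered 61 of the 19938 genes named by a probe set with a single symbol, and each was read from the probe set that was brightest on average across the 5 arrays. By known function they comprise 13 mitotic kinesins, 17 transport kinesins, 10 other kinesins and 21 centromere protein genes. Another 6 RefSeq symbols that fit the rule were not analysed here. Among them Kifc1, a spindle motor, and Kifc5b share a probe set that carries both symbols.

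The populations were sorted from the bone marrow of wild-type C57Bl/6 mice, used untreated, and measured on 1 array each. All were lineage-negative and CD115-positive. Monocyte-dendritic cell progenitors (MDP) carried CD117 and CD135. Common dendritic cell progenitors (CDP) had intermediate CD117 and were also CD135-positive, whereas common monocyte progenitors (cMoP) had CD117 but lacked CD135. Classical monocytes were Ly6C-positive and TremL4-negative, and nonclassical monocytes were Ly6C-negative and TremL4-positive. The labels do not give the age or number of mice, or say whether animals were pooled. The genes of the gates followed them where measured. Kit, which encodes CD117, had log2 values of 10.11, 8.16 and 9.37 in MDP, CDP and cMoP, and of 5.79 in classical and 5.61 in nonclassical monocytes. Flt3 (CD135) was at 10.75 in MDP and 10.74 in CDP, while cMoP had 6.40, classical monocytes 6.74 and nonclassical monocytes 5.77. Treml4 was at 11.78 in nonclassical monocytes, against 6.18 in classical monocytes.

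Values are on a log2 scale, so a difference of 1 is 2-fold. The terms higher and lower are kept for differences of at least 1 log2 unit in which the brighter array reached a floor of 6.27, the median of all named genes' values. With 1 array per population no difference has a replicate check, no test was possible, and precision is limited by how many arrays there are. A fold is given as "at least" where the lower array was under the floor, which then stood in for its value. Levels are compared between arrays for one gene and never between genes, since probe sets differ in brightness. At or above the floor on 1 array or more were 49 of the 61 genes, and 12 were under it on every array. Exactly equal values on different arrays occurred in 28 of the 61 genes, and Kif5a and Kif21a held the same value on all 5.

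Promoter sequences are shown as examples: 3 mitotic kinesins and 2 centromere genes lower in nonclassical than in classical monocytes, then Cenpo and Kif1c, which were not lower. The genes shown are not all those with the largest differences, since Kif15 (-4.71) and Cenph (-4.18) are not printed. Each runs 5′ to 3′ on the gene's strand from 200 bases before the transcription start to 30 after it, from RefSeq (GRCm38.p6). Capitals mark CCAAT, the box bound by NF-Y, and TTTGAA, the core of the cell cycle genes homology region (CHR) bound by MuvB complexes, on either strand. On the opposite strand they read ATTGG and TTCAAA.
Kif11, chr19:37376182-37376411, plus strand: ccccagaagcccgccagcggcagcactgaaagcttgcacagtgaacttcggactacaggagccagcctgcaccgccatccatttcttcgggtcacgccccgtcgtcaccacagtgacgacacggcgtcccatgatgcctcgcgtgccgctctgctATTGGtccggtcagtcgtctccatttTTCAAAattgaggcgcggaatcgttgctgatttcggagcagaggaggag
Kif23, chr9:61946770-61946999, minus strand: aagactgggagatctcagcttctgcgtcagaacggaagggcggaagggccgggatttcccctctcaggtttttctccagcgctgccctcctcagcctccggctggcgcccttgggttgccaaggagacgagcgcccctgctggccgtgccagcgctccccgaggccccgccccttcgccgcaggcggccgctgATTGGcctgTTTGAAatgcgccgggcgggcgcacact
Kif4, chrX:100625865-100626094, plus strand: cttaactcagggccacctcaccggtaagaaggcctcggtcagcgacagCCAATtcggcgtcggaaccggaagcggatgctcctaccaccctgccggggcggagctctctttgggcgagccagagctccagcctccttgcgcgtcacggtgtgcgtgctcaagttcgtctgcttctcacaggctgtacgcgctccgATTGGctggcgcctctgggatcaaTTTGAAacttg
Cenpa, chr5:30666686-30666915, plus strand: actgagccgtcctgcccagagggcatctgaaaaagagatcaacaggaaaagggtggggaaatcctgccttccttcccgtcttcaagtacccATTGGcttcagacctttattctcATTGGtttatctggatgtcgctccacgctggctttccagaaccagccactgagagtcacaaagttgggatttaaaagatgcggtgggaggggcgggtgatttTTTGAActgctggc
Cenpe, chr3:135212363-135212592, plus strand: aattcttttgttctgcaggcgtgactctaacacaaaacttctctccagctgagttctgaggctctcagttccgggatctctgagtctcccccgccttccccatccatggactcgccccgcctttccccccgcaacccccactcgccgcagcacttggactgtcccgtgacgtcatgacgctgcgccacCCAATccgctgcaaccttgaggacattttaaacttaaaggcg
Cenpo, chr12:4233936-4234165, minus strand: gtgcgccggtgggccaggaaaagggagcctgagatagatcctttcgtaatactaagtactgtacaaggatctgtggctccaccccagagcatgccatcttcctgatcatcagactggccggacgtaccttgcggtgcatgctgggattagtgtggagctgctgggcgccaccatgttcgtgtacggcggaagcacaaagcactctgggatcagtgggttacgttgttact
Kif1c, chr11:70700348-70700577, plus strand: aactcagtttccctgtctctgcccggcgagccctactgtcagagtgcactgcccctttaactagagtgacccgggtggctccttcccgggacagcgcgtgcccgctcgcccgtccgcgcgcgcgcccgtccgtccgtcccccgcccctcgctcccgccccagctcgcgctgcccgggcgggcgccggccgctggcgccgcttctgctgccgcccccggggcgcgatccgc
In Kif23 the ATTGG begins 7 bases before the start and TTTGAA at base 3 after it, and in Kif11 ATTGG begins at base -45 and TTCAAA at base -19, counted from the start. Neither motif is in the windows of Cenpo and Kif1c. The printed windows do not stand for their lists: all 3 kinesins shown hold both motifs, against 5 of 10 windows of mitotic kinesins past the floor. Letters and differences did not always go together. Of the centromere genes lower in nonclassical than in classical monocytes, 4 of 16 had neither motif (Cenph, Cenpp, Cenps and Cenpt), and of those not lower, 4 of 5, all but Cenpx, which has CCAAT. Among the mitotic kinesins past the floor Kif18a had neither, Kif15, Kif20b and Kif2c lacked CCAAT, and Kif14 lacked TTTGAA. Kif20a had no entry among the promoter sequences.

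The motifs were counted in windows of the same 230 bases for the 52 members with an entry, and in all 32851 windows of the table. TTTGAA was present in 8 of 10 windows of mitotic kinesins past the floor (80%), in 5 of 24 of centromere protein genes (20.8%; 5 of 18 windows of those lower in nonclassical monocytes and 0 of 6 of the others), in 1 of 13 of transport kinesins, dim ones included (7.69%), and in 13.8% of all windows. The 8 were Kif11, Kif15, Kif18b, Kif20b, Kif22, Kif23, Kif2c and Kif4. CCAAT was present in 6 of those 10 windows (60%), in 15 of 24 (62.5%; 13 of 18 and 2 of 6), in 4 of 13 (30.8%) and in 31.7% of all windows. Both stood together in 5 mitotic kinesin windows (50%), in 5 centromere windows (20.8%), in 0 transport kinesin windows and in 4.47% of all. GCGGGAA, an E2F-like sequence, was in 6 of 24 centromere windows (25%), those of Cenpb, Cenpc1, Cenpk, Cenpl, Cenpm and Cenpn, in 0 of 10 mitotic kinesin windows and in 3.76% of all. CCGGAAG, an ETS-type sequence, was in 4 of 10, 4 of 24 and 2 of 13 windows, against 7.85% of all. Of the other sequences searched on both strands, TTTAAA was in 1, 4 and 0 windows of the same 3 lists (10.1% of all) and TTCGAA in 0, 1 and 0 (1.12%). TTTGAAT, which holds TTTGAA, was in 3, 2 and 0 (3.15%), CCAATCA, which holds CCAAT, in 2, 7 and 0 (6.99%), and TTTCGCGC in none of the 3 (0.265%). A match is a run of letters and not a measured binding site.

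The mitotic kinesins differed most between the 2 monocyte arrays, and Kif23 alone also passed the threshold elsewhere, between cMoP and CDP. In nonclassical monocytes 11 of the 13 were lower than in classical monocytes, by 2.75 to 6.18 log2 units, and the other 2, Kif2b and the pseudogene Kif4-ps, were under the floor on every array. Only 1 of the 13, Kif23, was at or above the floor in nonclassical monocytes. The sizes for the others, and the medians, thus use values under the floor. Among all 10503 named genes past the floor in this comparison, 9.82% were lower. Median differences were -3.38 for the 11 and -0.09 for all genes past the floor, and -3.19 and 0.01 over all measured members and all named genes. In none of the 11 did classical monocytes differ from cMoP by the threshold, where 7.01% of all genes were higher and 4.4% lower. In a bulk sample, fewer cells carrying a transcript and less of it per cell cannot be told apart.

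**Figure D1:**
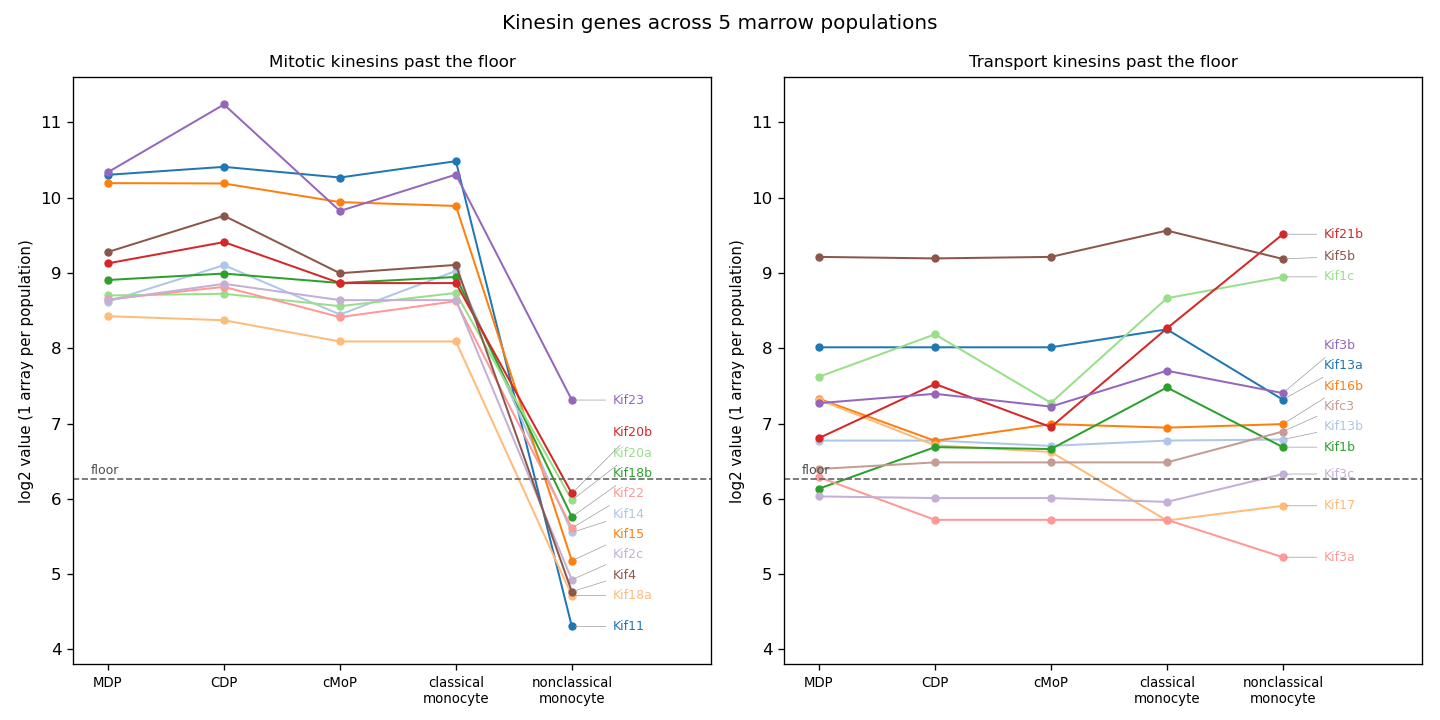
Log2 values of kinesin genes at or above the floor (dashed line, 6.27) on 1 array or more, in 5 marrow populations with 1 array each; lines join the values of a gene and do not stand for a lineage. The 11 mitotic kinesins (left) lie between 8.09 and 11.24 on 4 arrays and between 4.30 and 7.31 in nonclassical monocytes, while the 12 transport kinesins (right) show no shared drop and Kif21b climbs to 9.51.

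Spindle pole motors had the largest differences. Kif11, the motor that pushes the spindle poles apart, had values of 10.30 in MDP, 10.41 in CDP, 10.27 in cMoP, 10.48 in classical monocytes and 4.30 in nonclassical monocytes. The first 4 arrays lay within 0.22 of each other, and nonclassical monocytes were at least 18.6-fold lower than classical ones (-6.18). Only 2 of the 10503 genes past the floor had a more negative difference, a rank that uses the Kif11 value under the floor. Kif15, which helps Kif11 to keep the spindle bipolar, was at 10.19 in MDP, 10.19 in CDP, 9.94 in cMoP, 9.89 in classical and 5.18 in nonclassical monocytes. It was thus at least 12.3-fold lower in nonclassical than in classical monocytes (-4.71).

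Motors of the chromosome arms were highest in CDP, as were the mitotic kinesins Kif14, Kif18b, Kif20b, Kif23 and Kif2c. Kif4, a chromokinesin that also organizes the central spindle, had 9.28, 9.76 and 8.996 in MDP, CDP and cMoP, 9.11 in classical and 4.77 in nonclassical monocytes. Kif22, a chromokinesin that pushes chromosome arms away from the poles, had 8.65, 8.82, 8.41, 8.63 and 5.61 in the same order of arrays. For both genes nonclassical monocytes were the lowest array. Relative to classical monocytes they were at least 7.15-fold (-4.34) and at least 5.12-fold (-3.01) lower in nonclassical monocytes.

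Among the motors of cytokinesis Kif23 differed most between the progenitors. Kif23, which forms the centralspindlin complex with Racgap1 at the cell equator, had 10.34 in MDP, 11.24 in CDP, 9.82 in cMoP, 10.31 in classical and 7.31 in nonclassical monocytes. It stood above the floor on all 5 arrays, and so its 7.97-fold lower value in nonclassical than in classical monocytes (-2.995) is not a bound. Kif14, which brings citron kinase to the midbody, had 8.62, 9.10, 8.45, 9.03 and 5.55 in the same order. A second Kif14 probe set was far under the floor, at 3.59 in both nonclassical and classical monocytes, and showed no difference. Kif20a, which carries the Aurora B complex to the central spindle, had 8.70, 8.72, 8.56, 8.73 and 5.98. Its first 4 arrays lay within 0.18 of each other. Kif20b, a motor of abscission, had 9.13, 9.41, 8.87, 8.87 and 6.07. In nonclassical monocytes Kif14, Kif20a and Kif20b were at least 6.77-fold, 5.52-fold and 6.05-fold lower than in classical monocytes.

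Kinesins that shorten or cap microtubules had the same pattern. Kif2c, which removes faulty kinetochore attachments, had 8.64 in MDP, 8.86 in CDP, 8.64 in cMoP, 8.64 in classical and 4.92 in nonclassical monocytes. Kif18a, which dampens chromosome movements at the metaphase plate, had 8.43, 8.37, 8.09, 8.09 and 4.71 in the same order. Kif18b, which limits astral microtubules, had 8.91, 8.99, 8.87, 8.95 and 5.76. On the 4 arrays other than nonclassical monocytes these 3 genes moved by 0.34 or less. Their values in nonclassical monocytes were at least 5.17-fold, 3.53-fold and 6.40-fold lower than in classical monocytes.

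Centromere protein genes were all above the floor on the 4 arrays other than nonclassical monocytes, where 8 of 21 remained above it. In nonclassical monocytes 16 of the 21 were lower than in classical monocytes, against the background of 9.82%, and the median difference was -1.90. Cenpa, the centromeric histone itself, had 10.13 in MDP, 10.52 in CDP, 10.16 in cMoP, 10.50 in classical and 7.78 in nonclassical monocytes. It was 6.61-fold lower in nonclassical than in classical monocytes (-2.72) and still above the floor there.

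**Figure D2:**
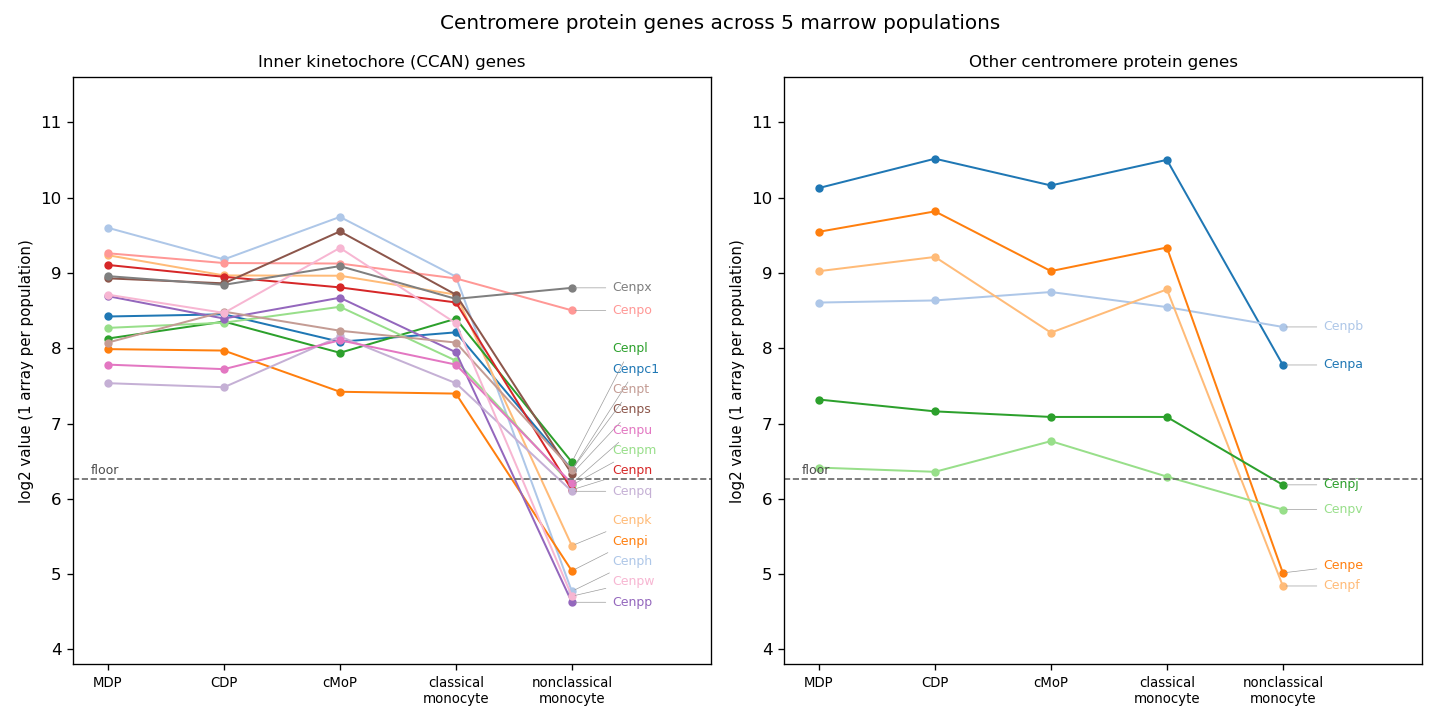
Log2 values of the 15 inner kinetochore genes (left) and the 6 other centromere protein genes (right) in 5 marrow populations with 1 array each; the dashed line is the floor of 6.27 and lines join the values of a gene. In nonclassical monocytes Cenpx, Cenpo and Cenpb stay between 8.28 and 8.80, while Cenpe, Cenpf, Cenph, Cenpw and Cenpp lie between 4.63 and 5.02.

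Genes of the outer kinetochore had the largest log2 differences among the centromere proteins other than the CCAN. Cenpe, a kinesin that moves chromosomes to the spindle equator, had 9.55, 9.82 and 9.02 in MDP, CDP and cMoP, 9.34 in classical and 5.02 in nonclassical monocytes. Cenpf, a large coiled-coil protein of the outer kinetochore, had 9.02, 9.21, 8.21, 8.78 and 4.84 in the same order. Both genes were lowest in cMoP among the 4 arrays other than nonclassical monocytes. Relative to classical monocytes, nonclassical monocytes were at least 8.39-fold lower for Cenpe (-4.32) and at least 5.71-fold lower for Cenpf (-3.94). These folds are bounds, and that of Cenpf is smaller than the measured 6.61-fold of Cenpa.

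The CCAN had 13 of 15 measured genes lower in nonclassical than in classical monocytes, against 9.82% of all genes, and the size varied within its subcomplexes. In the CENP-H, -I, -K and -M group all 4 were lower. Cenph had 9.60, 9.18 and 9.74 in MDP, CDP and cMoP, 8.95 in classical and 4.77 in nonclassical monocytes, a difference of -4.18 between the monocytes. Cenpk had 9.24, 8.97, 8.96, 8.71 and 5.38 in the same order (-3.34). Cenpi, at 7.99, 7.97, 7.42, 7.40 and 5.04, and Cenpm, at 8.27, 8.34, 8.55, 7.83 and 6.18, had smaller differences of -2.35 and -1.65. The nonclassical values were under the floor in all 4 cases, so the folds are bounds. They were at least 6.42-fold for Cenph, 5.44-fold for Cenpk, 2.19-fold for Cenpi and 2.96-fold for Cenpm, which reverses the order of Cenpi and Cenpm.

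Cenpc1, which links CENP-A nucleosomes to the outer kinetochore, had 8.42, 8.45, 8.09, 8.21 and 6.39 in MDP, CDP, cMoP, classical and nonclassical monocytes. It was 3.54-fold lower in nonclassical than in classical monocytes (-1.82). The pair that reads CENP-A nucleosomes was also lower. Cenpn had 9.11, 8.95, 8.81, 8.61 and 6.12 (-2.49), and Cenpl had 8.13, 8.35, 7.94, 8.39 and 6.49 in the same order (-1.90).

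The CENP-O, -P, -Q and -U group was split. Cenpp had 8.69, 8.39 and 8.67 in MDP, CDP and cMoP, 7.95 in classical and 4.63 in nonclassical monocytes (-3.32). Cenpo had 9.26, 9.13, 9.12, 8.93 and 8.50 in the same order (-0.42). Nonclassical monocytes were the lowest array for both genes, but Cenpo moved by less than the threshold. Cenpq, at 7.54, 7.48, 8.16, 7.54 and 6.10, and Cenpu, at 7.78, 7.72, 8.11, 7.78 and 6.20, lay between them (-1.44 and -1.58). Both were highest in cMoP. With a floor at the upper quartile of all values, 7.93, Cenpi, Cenpm, Cenpq and Cenpu were too dim on both monocyte arrays to be counted in this comparison. Itgb3bp, the gene of CENP-R in the same network, lies outside the symbol rule and reached the floor in MDP alone, with 6.32, 5.88, 5.88, 5.37 and 5.88 in MDP, CDP, cMoP, classical and nonclassical monocytes.

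The histone-fold group of CENP-T, -W, -S and -X was split as well. Cenpw had 8.71, 8.47 and 9.33 in MDP, CDP and cMoP, 8.33 in classical and 4.71 in nonclassical monocytes, a difference of -3.63 between the monocytes. Cenps had 8.93, 8.86, 9.55, 8.71 and 6.33 in the same order (-2.38). Cenpt had 8.08, 8.49, 8.23, 8.08 and 6.39 (-1.69). Cenpx, the histone-fold partner of CENP-S in the kinetochore and in the FANCM repair complex, had 8.96, 8.84, 9.09, 8.66 and 8.80. It was the only centromere gene of the 21 with a value in nonclassical monocytes above that in classical monocytes (0.15), so the genes of these 2 partners differed by -2.38 and 0.15.

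For Cenpb, Cenpj and Cenpv the differences between the monocytes were below the threshold. Cenpb, which binds a motif of centromeric satellite DNA, had 8.61 in MDP, 8.63 in CDP, 8.75 in cMoP, 8.55 in classical and 8.28 in nonclassical monocytes (-0.26). Cenpj, a factor of centriole assembly, had 7.32, 7.16, 7.09, 7.09 and 6.19 in the same order (-0.90). Cenpv had 6.41, 6.36, 6.77, 6.29 and 5.86 (-0.44), close to the floor throughout. These 3 with Cenpo and Cenpx are the 5 centromere genes not counted as lower in nonclassical monocytes.

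**Figure D3:**
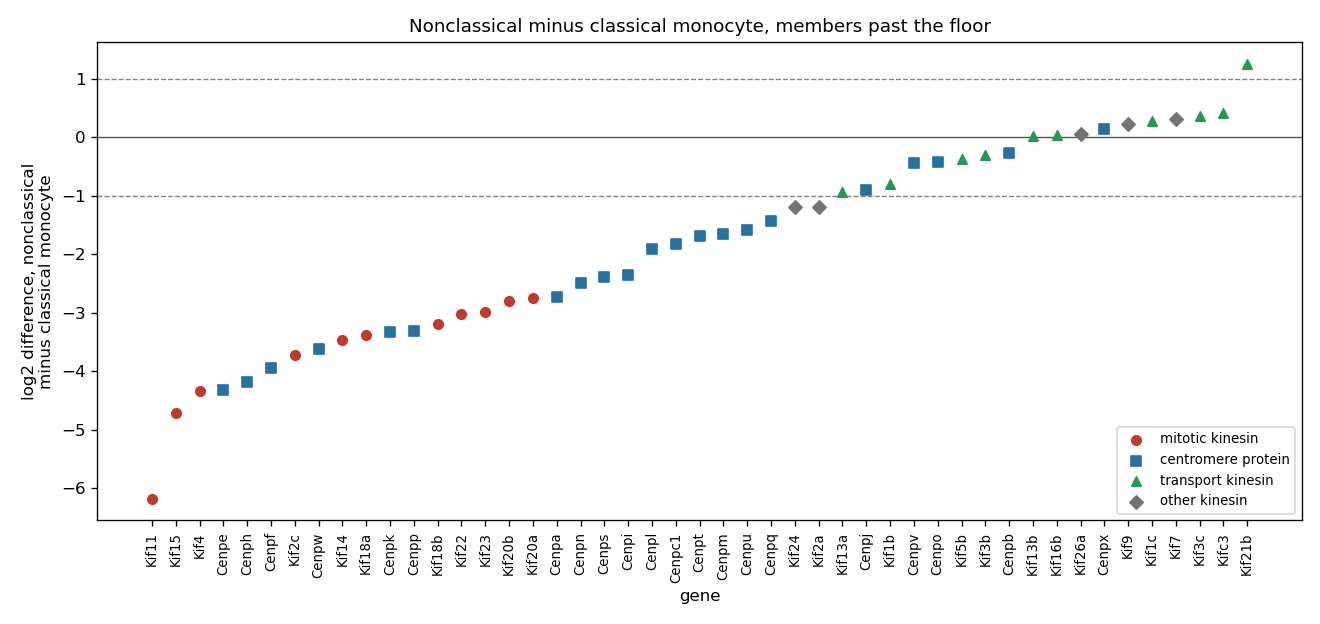
Log2 difference, nonclassical minus classical monocyte, for each kinesin and centromere protein gene past the floor on either array, ordered by size; dashed lines mark 1 log2 unit either way. Every mitotic kinesin lies at -2.75 or below, no transport kinesin lies below -0.93, and Kif21b (1.25) is the only gene above 1.

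Transport kinesins gave another picture. Of 17 measured, 10 were past the floor in the comparison of nonclassical with classical monocytes, where 1 was higher and 0 lower, against 3.55% higher and 9.82% lower among all genes. The median difference was 0.03 over those 10, which became -0.06 with centred arrays, and 0.01 over all 17. Kif1a, Kif5a, Kif5c, Kif21a and Kifc2 were under the floor on every array. Kif5b, the heavy chain of the widely expressed kinesin-1 motor, had 9.21 in MDP, 9.19 in CDP, 9.21 in cMoP, 9.56 in classical and 9.19 in nonclassical monocytes. Its whole range was 0.38.

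**Figure D4:**
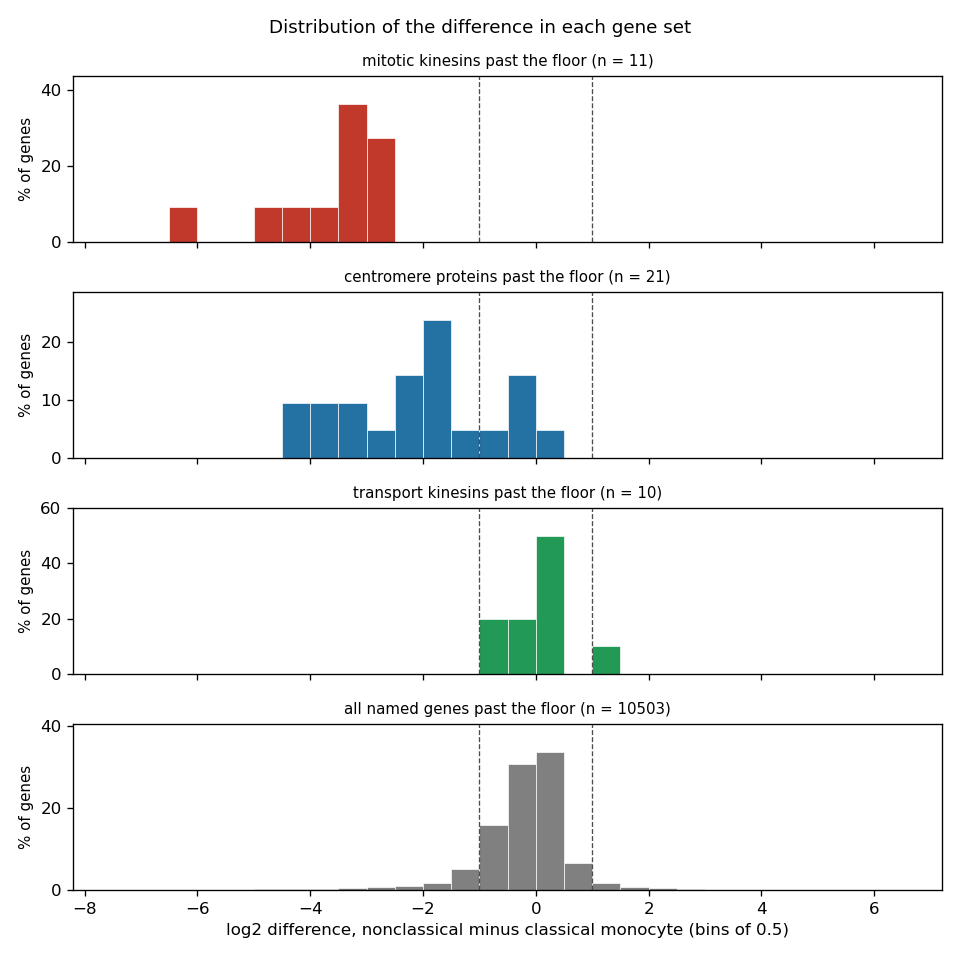
Share of genes (%) by log2 difference, nonclassical minus classical monocyte, in bins of 0.5, for 11 mitotic kinesins, 21 centromere protein genes, 10 transport kinesins and all 10503 named genes past the floor; dashed lines mark 1 log2 unit. The mitotic kinesins lie wholly to the left of the dashed line at -1, the centromere genes straddle it, and the transport kinesins lie to its right with all but 1 gene between the lines.

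Kif21b and Kif1c were higher in monocytes than in cMoP. Kif21b, a kinesin-4 motor that restrains microtubule growth, had 6.81 in MDP, 7.53 in CDP, 6.95 in cMoP, 8.26 in classical and 9.51 in nonclassical monocytes. Classical monocytes were 2.48-fold higher than cMoP (1.31) and nonclassical monocytes 2.38-fold higher than classical ones (1.25). Kif1c, a kinesin-3 motor of vesicle transport linked to podosomes in human macrophages, had 7.62, 8.18, 7.27, 8.66 and 8.95 in the same order. It was 2.62-fold higher in classical monocytes than in cMoP (1.39), and its difference between the monocytes was 0.28. These 2 were the only transport kinesins of 10 past the floor to pass the threshold in classical monocytes against cMoP, where 7.01% of all genes were higher. The second Kif1c probe set, which was dimmer, had 7.58 in nonclassical and 7.59 in classical monocytes, against 6.70 in cMoP, so its increase over cMoP was below the threshold.

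Other transport kinesins with a range of 1 log2 unit or more peaked elsewhere. Kif1b, a kinesin-3 motor of mitochondria and vesicles, was highest in classical monocytes at 7.48, with 6.13 in MDP, 6.69 in CDP, 6.66 in cMoP and 6.69 in nonclassical monocytes. Kif17, a kinesin-2 motor known from neurons and cilia, was highest in MDP, with 7.32, 6.71, 6.62, 5.71 and 5.91 in MDP, CDP, cMoP, classical and nonclassical monocytes. Kif3a, a subunit of heterotrimeric kinesin-2, reached the floor in MDP alone, with 6.29, 5.72, 5.72, 5.72 and 5.22. None of these 3 passed the threshold between the arrays compared here. Kif13a, a motor of recycling endosomes, had 8.01 on each progenitor array, 8.25 in classical and 7.32 in nonclassical monocytes. Its difference between the monocytes of -0.93 became -1.02 when arrays were centred on their medians. Kif3b, Kif3c, Kif13b, Kif16b and Kifc3 ranged over 0.08 to 0.56 across the 5 arrays.

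Among the 10 other kinesins 5 were past the floor in nonclassical or classical monocytes, and 2 of these were lower in nonclassical monocytes, against 9.82% of all genes. Kif2a, a depolymerizer that works at spindle poles and in neurons, had 9.68 in MDP, 9.38 in CDP, 9.46 in cMoP, 9.63 in classical and 8.44 in nonclassical monocytes (-1.19, and -0.999 after quantile normalization, just short of the threshold). Kif24, a centriolar kinesin that restrains cilia, had 7.85, 7.54, 7.35, 7.24 and 6.04 in the same order (-1.20), and was too dim on both monocyte arrays to be counted at the floor of 7.93. Both were highest in MDP. Kif7, a cilium protein of Hedgehog signalling, Kif9 and Kif26a ranged over 0.18 to 0.44 on the 5 arrays, and the remaining 5 were under the floor throughout.

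Differences among the 3 progenitors and the classical monocyte were small in comparison. Between CDP and MDP 0 of 11 mitotic kinesins and 0 of 21 centromere genes were higher or lower (1.15% higher and 1.06% lower over all genes). Of the 11 mitotic kinesins 9 had a positive difference, as did 39.9% of all genes, led by Kif23 at 0.90. Between cMoP and MDP the counts were also 0 for both lists (1.44% and 1.4% over all genes). There 10 of the 11 mitotic kinesins had a negative difference, none beyond -0.52, as did 41.9% of all genes, and Kif2c held the same value on both arrays. Centring of the arrays, which moved the median of all genes to 0.11, left 8 of the 11 negative and moved their median to -0.12, against -0.23 as deposited.

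Between cMoP and CDP all 11 mitotic kinesins had a negative difference, as did 41% of all genes. Their median was -0.28, or -0.17 with centred arrays, and Kif23 passed the threshold at -1.41 (3.23% higher and 2.2% lower over all genes). The centromere genes were split, with 10 above 0 and 11 below, where 51.7% of all genes were above. With centred arrays 13 were above and 8 below (61.9% above), against 70.2% of all genes above 0. Cenpf passed the threshold at -1.01, which centring of the arrays reduced to -0.90. Cenpw (0.86), Cenps (0.69), Cenpq (0.67) and Cenph (0.56) lay on the other side, without passing it. These comparisons with cMoP share its array, as those with MDP share theirs.

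Between classical monocytes and cMoP the mitotic kinesins had 0 higher and 0 lower of 11, with differences from -0.05 to 0.58 and a median of 0.11. Of the centromere genes 1 of 21 was lower, Cenpw at -1.001 (4.4% lower over all genes), and 15 of 21 had a negative difference, as did 50.7% of all genes. In the CCAN 13 of 15 differences were negative, with a median of -0.32. Cenps (-0.84) and Cenph (-0.79) followed Cenpw, while Cenpf (0.57), Cenpl (0.45), Cenpa (0.34) and Cenpe (0.31) were positive.

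Both monocyte arrays were also taken against the 3 progenitor arrays. Of the 49 members past the floor on any array, 0 lay apart between the groups by 1 log2 unit in either direction. Among all such genes 0.787% did so as lower and 2.38% as higher. Median differences of the group means were -1.67 for mitotic kinesins, -1.13 for centromere genes, 0.15 for transport kinesins and -0.04 for all genes past the floor. Classical monocytes lay within the range of the 3 progenitor arrays for 8 of the 11 mitotic kinesins, 8 of the 21 centromere genes and 4 of the 12 transport kinesins past the floor. They were below all 3 progenitors for 12 centromere genes, 10 of them in the CCAN, and above all 3 for 6 transport kinesins. No size threshold was applied to these positions, and their share over all genes was not computed. Whether the counts are unusual for these lists therefore cannot be said. A further rule, chosen after seeing these values, was that nonclassical monocytes be the lowest array by 1 log2 unit or more. Of genes past the floor on any array it was met by 11 of 11 mitotic kinesins, 16 of 21 centromere genes and 0 of 12 transport kinesins. Among all genes past the floor on any array 6.5% met it. The opposite rule was met by Kif21b alone of the 49 members past the floor on any array, against 2.88% of all such genes.

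Partners of these proteins were read from lists of neighbouring genes. Of the 12 partners of mitotic kinesins 11 were lower in nonclassical than in classical monocytes, with a median difference of -3.83, where 9.82% of all genes were lower. They included Birc5, the survivin subunit of the Aurora B complex (-5.14), Hmmr, a spindle-binding protein (-5.00), Tpx2, the activator of Aurora A (-4.67), and Prc1, the bundler of the central spindle (-4.45). Numa1, a spindle pole protein that also resides in interphase nuclei, was the exception at -0.30, and is named here after its value was seen. Of the 17 outer kinetochore genes 14 were lower, against the same 9.82%, with a median of -1.96, led by Nuf2 (-5.09) and Knl1 (-4.13). Both genes measured for loading of CENP-A, Mis18a (-1.67) and Oip5 (-1.83), were lower too.

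Partners of transport kinesins and the dynein motor were near the background of 3.55% higher and 9.82% lower. Of the 10 light chain and adaptor genes 7 were past the floor between the monocytes, with 0 higher, 0 lower and a median of -0.17. Of the 18 dynein and dynactin genes, which form the motor of transport towards the microtubule minus end, 17 were past the floor, with 0 higher, 0 lower and a median of -0.26, against -0.09 for all genes. Of these 17, 15 had a difference below 0, as did 56.3% of all genes past the floor.

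Markers of other marrow cells that might pass the gates were read on the same arrays, and their part in these differences was not tested. Of 7 erythroid markers 2 were at or above the floor in nonclassical and 2 in classical monocytes, with mean log2 values of 5.58 and 5.59. For 7 B cell markers the counts were 2 and 2 (means 6.11 and 5.76), for 6 T and NK cell markers 1 and 0 (5.07 and 4.92), and for 4 megakaryocyte markers 2 and 0 (5.18 and 4.95). Of 10 neutrophil markers 3 were at or above the floor in nonclassical and 5 in classical monocytes (5.84 and 7.44). S100a8 (-4.79), S100a9 (-3.89) and Mmp8 (-6.97), which classical monocytes also express, were lower in nonclassical monocytes. Camp, a neutrophil granule gene, had 6.64 in nonclassical and 6.89 in classical monocytes. Ngp, another, had 6.24 in nonclassical and 6.62 in classical monocytes, and was higher in classical monocytes than in cMoP (1.53). The remaining 5, Ly6g, Ltf, Retnlg, Mmp9 and Cxcr2, were under the floor on both monocyte arrays.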

How the data were processed

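Per the labels' protocols, RNAqueous-Micro extraction and Nugen Encore biotin labelling were used for the RNA of 5 sorted populations, measured on 1 array each. The deposited log2 values cover 35556 probe sets. The base of the logarithm was read from their range (1.59 to 14.24), and no background correction, normalization or software is given in the sources used here. Array medians ran from 6.02 to 6.16. The platform annotation gives a single symbol to 21789 probe sets and several to 1621. Each gene took its probe set with the highest mean. All 61 members matched RefSeq identifiers (GRCm38.p6) and 0 changed name. Differences, counts and medians were computed with Python 3.11.15 and pandas 2.3.3. The code of the calling step was checked on simulated arrays without noise, which cannot show how often real arrays give false calls. No test, p-value or SD was possible. The rule for genes named with all 5 values took mitotic kinesins and centromere genes past the floor, and other kinesins with a range of 1 log2 unit or more, plus the 3 transport kinesins with the highest means. Alternatives changed the floor, the scaling, the probe set rule, the threshold and the place of Cenpe and Kif2a. Members, lists and sequence motifs were chosen with earlier results of these data known.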

Additional observations from a re-analysis of the deposited data

How the results depend on the processing

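Over 60 counts and medians under 6 alternatives, 338 of 360 values stayed within 1.5 times the count or 0.2 log2 units of the median, and 22 moved further. Part of these values could not move. The threshold does not enter the medians, and the place of Cenpe and Kif2a does not touch the transport kinesins. Averaging leaves the values of genes with 1 probe set unchanged, all centromere genes among them. No median of 1 log2 unit or more changed sign. Of the smaller medians 6 changed sign under 1 or more alternatives, none larger than 0.11 in size before or after. They were those of transport kinesins for cMoP against MDP, cMoP against CDP and nonclassical against classical monocytes, and of centromere genes for CDP against MDP, cMoP against MDP and cMoP against CDP. Quantile normalization, averaging the probe sets of each gene, and Cenpe and Kif2a counted as mitotic kinesins moved none past these limits. A floor at the upper quartile (7.93) gave medians for transport kinesins of 0.83 for classical monocytes against cMoP and 0.64 for monocytes against progenitors, and for centromere genes of -2.49 for nonclassical against classical monocytes and -1.38 for monocytes against progenitors, over fewer genes. Centring arrays on their medians left 0 centromere genes lower between cMoP and CDP and made 1 transport kinesin, Kif13a, lower in nonclassical than in classical monocytes. A threshold of 1.5-fold, looser by construction, gave for mitotic kinesins 1 higher in CDP than in MDP and 3 lower in cMoP than in CDP. For transport kinesins it gave 1 higher and 1 lower in CDP against MDP, 1 lower in cMoP against MDP, 1 lower in cMoP against CDP, 1 lower in classical monocytes against cMoP, and 2 lower in nonclassical against classical monocytes. It also gave 1 higher and 1 lower in monocytes against progenitors, and 1 transport kinesin lowest in nonclassical monocytes. For centromere genes it gave 3 higher and 1 lower in cMoP against MDP, 3 higher and 2 lower in cMoP against CDP, and 6 lower in classical monocytes against cMoP. No paired analysis was possible because each population has 1 array. For the same reason no array could be left out.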
